A study of Mus musculus with 28 samples.

Results

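The O3 response of the AM miRNome was compared between co-ex and KO mice with both sexes joined in one contrast. The contrast is the mean log2 change from FA to O3 in co-ex females and co-ex males, minus the same mean in KO females and KO males, so a value below 0 means that a miRNA rose less, or fell more, after O3 in co-ex than in KO. All 28 libraries of the series entered it, 16 from co-ex and 12 from KO. Of 607 miRNAs listed in at least 1 of the 4 deposited tables, 308 were listed in all 4, and 230 of these were tested, after a filter on low values asked, in every table, for a normalized value of 5 or more in at least the number of libraries of its smaller group. The other 78 were not tested.

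The mice were 12 weeks old and of both sexes, and the females were synchronized for the estrous cycle. Both genotypes lack mouse SP-A. KO mice are SP-A knockouts with no human gene, and co-ex mice are the same C57BL/6J knockout with transgenes for human SP-A1 (variant 6A2) and SP-A2 (variant 1A0), whose promoter is not given in the sources used here, nor is the O3 dose. Mice breathed FA or O3 for 3 h, and AM were taken from the lavage 4 h later. Each co-ex group of 1 sex and 1 exposure had 4 libraries and each KO group had 3, although 4 animals were exposed in each group per the methods. By the methods, the mice used for miRNAs come to 4 in each group and replicates are compared as mice, which fits 1 mouse per library in co-ex. The labels do not state it, and where libraries share a mouse the p-values measure a spread between libraries that may be in part technical.

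A miRNA is a short RNA, cut from a hairpin precursor, that guides a protein complex to mRNAs which pair with its seed, bases 2 to 8 counted from its 5′ end, and these mRNAs are then translated less or degraded. SP-A is a lectin of the alveolar lining that binds to AM, the phagocytes that clear particles and damaged cells from the airspace, and O3 is an oxidant that injures the airway epithelium. Lavage from an injured lung can hold shed epithelial cells and red cells beside AM, and small RNA reads can come from fragments of repeats, tRNA or rRNA beside true miRNAs.

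Of the 230 miRNAs tested, 10 (4.35%) passed the threshold for the difference between genotypes, an adjusted p of 0.1 by limma, and all 10 were lower in co-ex than in KO, while 0 (0%) were higher. At an unadjusted p of 0.05 there were 39. The 10 were miR-34c-3p, miR-34b-3p, miR-3473e, miR-92b-3p, miR-2137, miR-6240, miR-714, miR-1961, miR-375-3p and miR-712-5p. Among them were miRNAs of epithelial cells, a member of the miR-25/92 seed family, and entries on a list of uncertain origin. This list was made from general knowledge, and its names may stand for repeat-like sequences or for fragments of other RNAs.

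RefSeq (build GRCm38.p6) held a mature sequence for 197 of the 230 tested miRNAs and for 7 of the 10. These 7 are shown because the joint result consists of them, with let-7a-5p and miR-92a-3p beside them as relatives with the same seed, and capitals mark the seed.
miR-34c-3p: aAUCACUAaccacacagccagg
miR-34b-3p: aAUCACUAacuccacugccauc
miR-92b-3p: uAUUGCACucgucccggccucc
miR-92a-3p: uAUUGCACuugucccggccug
miR-1961: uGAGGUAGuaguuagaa
let-7a-5p: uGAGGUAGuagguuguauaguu
miR-3473e: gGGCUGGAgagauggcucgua
miR-2137: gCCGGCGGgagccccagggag
miR-6240: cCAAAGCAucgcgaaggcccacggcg
miR-34c-3p and miR-34b-3p are identical over their first 10 bases, miR-92b-3p and miR-92a-3p over 9, and miR-1961 and let-7a-5p over 11. The 7 ranged from 35.3% to 85.7% in GC content (median 61.9%), against a median of 47.8% over the 190 other tested miRNAs with a sequence. An exact copy in another gene was counted for 0 of the 7 and for 61 (32.1%) of the 190. The same count was 0 for miR-181a-5p, although 3p arms of both miR-181a-1 and miR-181a-2 were listed. A count of 0 thus does not show that a sequence comes from a single locus.

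The hairpins of miR-34b (chr9:51103562-51103645, minus strand) and miR-34c (chr9:51103034-51103110, minus strand) lie in 1 cluster, in an intron of Btg4 on the other strand (GENCODE M21). The hairpin of miR-92b (chr3:89227116-89227198, minus strand) is intergenic, as are those of miR-375 (chr1:74900658-74900721, minus strand) and miR-6240 (chr5:114851948-114852064, plus strand). The hairpin of miR-3473e (chr5:31667231-31667340, minus strand) is in an intron of Rbks on the same strand, that of miR-2137 (chrX:72992079-72992144, plus strand) in an intron of Zfp185 on the same strand, and that of miR-1961 (chr5:92788451-92788562, minus strand) in an intron of Shroom3 on the other strand.

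The libraries held from 41542 to 2082034 reads on miRNAs, with a median of 490152, and 3 of them (co-ex female FA replicate 3, co-ex female O3 replicate 1 and KO female O3 replicate 2) held 93520, 41542 and 111080. Depth went with genotype, with group medians of 149548.5 to 408363 reads in co-ex and 593136 to 1397128 in KO. The part of depth in the difference between genotypes was not tested. The myeloid list took 4.60% to 31.5% of the reads, with 9 to 13 of its 13 members seen in a library. Most of these reads were of miR-21a-5p (1959804 over the 28 libraries) and miR-146b-5p (1015911), which other cells also make, and fewer were of miR-223-3p (103939) and miR-142a-5p (51828), which are more particular to blood-derived cells. Several libraries stood apart from their group before any test. KO male FA replicate 3 held 3.33% of its reads on the epithelial list against 0.281% and 0.356% in the other KO male FA libraries, and 4.60% on the myeloid list against 24.9% and 31.5%. Co-ex male O3 replicate 2 held 5.80% on the epithelial list against 0.498% to 1.58% in the rest of its group, and co-ex male FA replicate 4 held 3.97% against 0.654% to 1.45%. In co-ex female FA replicate 2 the uncertain-origin list took 4.36% of the reads against 24.98% to 33.0% in the others. A list of mesenchymal and muscle miRNAs reached 9.06% of the reads in KO female O3 (group median 0.309%) and 3.08% in KO male FA (group median 0.111%). The endothelial miR-126a-3p reached 0.640% in KO male FA (group median 0.00107%). The library numbers in the tables did not overlap between co-ex and KO, so library number and genotype cannot be told apart. In KO, 9 libraries had consecutive numbers and 3 had later ones (female FA replicates 2 and 3 and male FA replicate 3), all of them FA. What the number stands for is not given in the sources used here.

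The number called depended on single libraries. In 7 of the 28 fits that left 1 library out all 10 were called again, and more were called with them without KO male FA replicate 3 (33 in all, 2 higher and 31 lower), co-ex male O3 replicate 2 (20), co-ex female FA replicate 2 (18), co-ex female O3 replicate 1 (17) or co-ex male FA replicate 1 (17). In 15 others 2 or 3 were called, namely without co-ex female FA replicate 1, 3 or 4, co-ex female O3 replicate 3 or 4, co-ex male FA replicate 3 or 4, co-ex male O3 replicate 1 or 3, KO female FA replicate 1, KO male FA replicate 1 or 2, or any 1 of the KO male O3 replicates. Without KO female O3 replicate 2 there were 4, and without KO female O3 replicate 3 there were 5. miR-34c-3p and miR-34b-3p were called in 28 of 28 such fits and miR-3473e in 25 (not without KO female FA replicate 1, KO male FA replicate 1 or KO male FA replicate 2), and the other 7 in 7 to 12 of them.

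**Figure D1:**
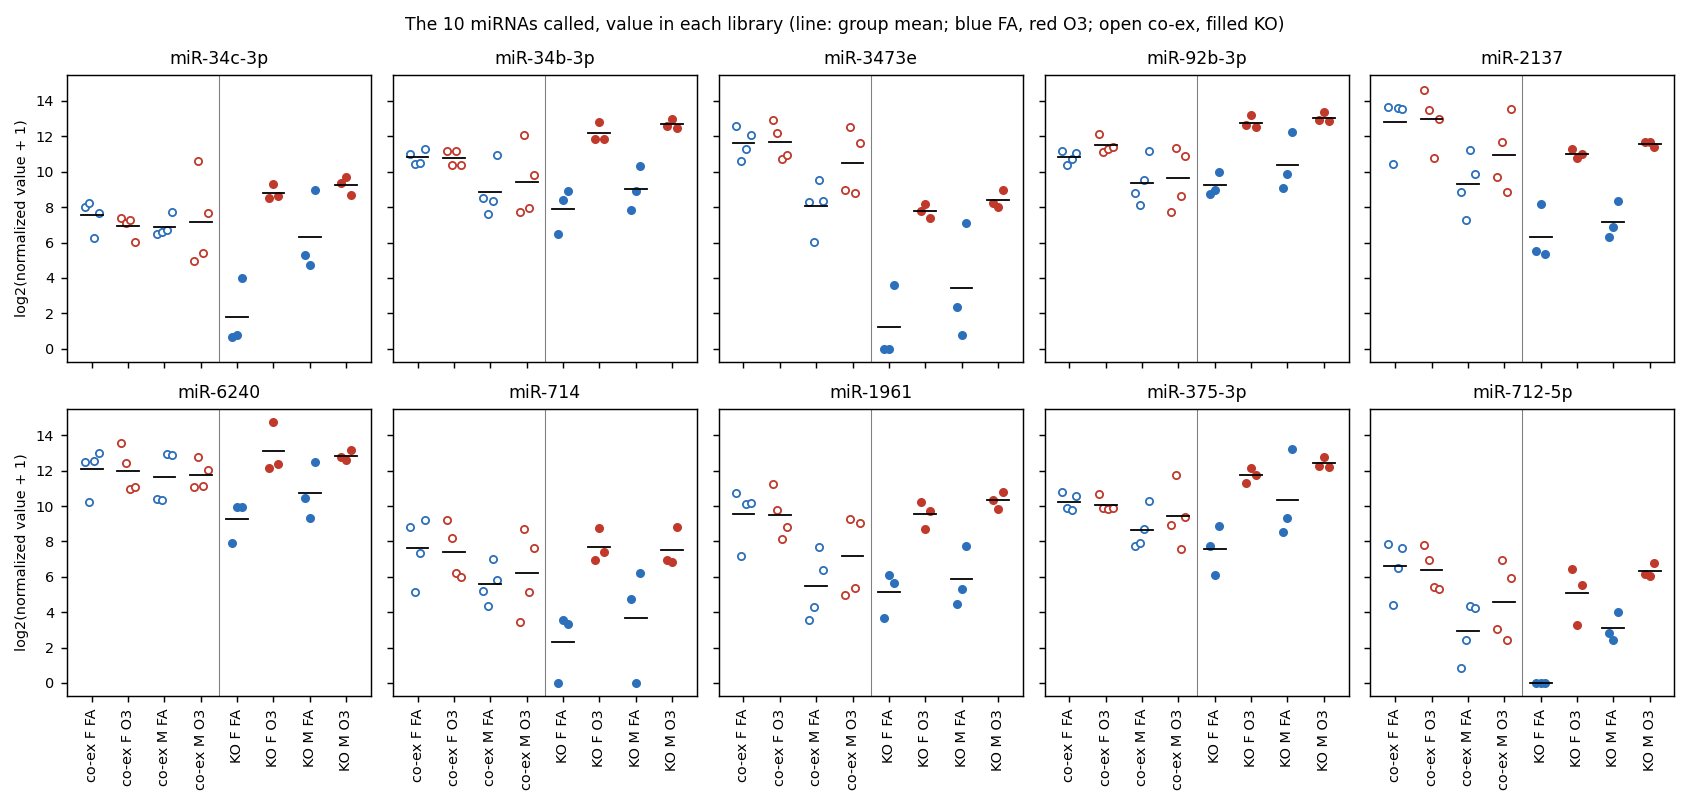
Each panel plots log2(normalized value + 1) of 1 called miRNA in each library (points) and the group mean (line), with co-ex open and KO filled, FA blue and O3 red. The KO FA groups sit low and the KO O3 groups high, while FA and O3 overlap in co-ex for each of the 10. Heights are set by a separate scale in each table and are comparable only within a genotype and sex.

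The miRNAs of epithelial cells came first. miR-34b and miR-34c are processed from 1 transcript, are abundant in multiciliated airway cells and are induced by p53. In KO females, miR-34c-3p stood at normalized values (reads divided by the size factor of the library) of 0.564, 0.732 and 14.7 after FA and 362, 633 and 389 after O3. In KO males it stood at 38.6, 25.3 and 509 after FA and 647, 848 and 414 after O3. The groups did not overlap in KO females, whereas in KO males the 509 of replicate 3 lay above the lowest O3 library. In co-ex females the values were 258, 297, 76.8 and 202 after FA and 169, 137.5, 154 and 63.1 after O3, and in co-ex males 87, 95.2, 104 and 213 after FA and 30.2, 1545, 41.1 and 202 after O3. FA and O3 overlapped in both co-ex tables. Overlap and separation are described here and below with no test, since the miRNAs were chosen with these values. Groups of 4 libraries, as in co-ex, also separate less readily than groups of 3, as in KO. The change was 4.96 ± 0.79 (log2, SE) in KO and -0.16 ± 0.69 in co-ex, and the difference between genotypes was -5.12 ± 1.05 (adjusted p = 0.0114).

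miR-34b-3p stood at 88, 333 and 476 after FA and 3625, 7184 and 3724 after O3 in KO females. In KO males it stood at 232, 472 and 1292 after FA and 6132, 8131 and 5674 after O3. Every KO library after O3 was above every one after FA, in both sexes. Co-ex females had 2079, 1394, 1441 and 2452 after FA and 2264, 1335, 2339 and 1327 after O3, and co-ex males 361, 197, 329.7 and 1999.5 after FA and 210.3, 4384, 244 and 896 after O3. Neither co-ex table separated the exposures. The difference between genotypes was -3.70 ± 0.82 (adjusted p = 0.0146), from a rise of 3.95 ± 0.62 in KO and 0.25 ± 0.54 in co-ex.

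miR-375-3p is made in endocrine and epithelial cells, those of the airway among them. It stood at 212, 66.6 and 475 after FA and 2519, 4604 and 3445 after O3 in KO females, and at 366, 629.6 and 9404 after FA and 4894, 7044 and 4731 after O3 in KO males. The 9404 of KO male FA replicate 3 was above all 3 O3 libraries of its table. Co-ex females had 1754, 961, 877 and 1499 after FA and 1649, 933, 923 and 944 after O3, and co-ex males 217, 240.0, 414 and 1248 after FA and 479, 3488, 191 and 664 after O3. Again the exposures overlapped in co-ex. The difference was -2.84 ± 0.88 (adjusted p = 0.0831), and miR-375-3p was called in 7 of the 28 fits that left 1 library out, the fewest of the 10.

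The epithelial list, made from general knowledge with earlier results of these data known, held 17 miRNAs in all 4 tables, and 15 were tested. All 15 differences were below 0, where 93 of all 230 were above 0, with a median of -2.34 against -0.20. By edgeR and by DESeq2, 13 of the 15 were below 0. The 3 just described were called by limma, where 10 of 230 (4.35%) were. Among the rest, miR-205-5p, of basal epithelial cells, was the nearest at -2.80 ± 0.92 (adjusted p = 0.111). In the KO arm 13 of the 15 rose, where 35 of 230 (15.2%) did, and in the co-ex arm 0 passed. The other arm of the miR-34c hairpin, miR-34c-5p, had a difference of -3.03 ± 1.09 (adjusted p = 0.133), and miR-34a-5p, the family member from another locus, had 0.07. Without KO male FA replicate 3, 13 of the 15 were called lower, where 31 of 230 were. That library held the most epithelial reads of the KO FA libraries (3.33%), so leaving it out was bound to widen these differences. In 15 of the 28 fits that left 1 library out only 2 or 3 miRNAs were called in all. In these bulk libraries, more epithelial cells among the lavage cells and more of these miRNAs per cell cannot be told apart, and the share of each in the result was not tested.

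miR-92b-3p has the seed of miR-25 and miR-92a, which belong to the growth-promoting miR-17 and miR-106b clusters, but it is made from a locus of its own. In KO females it stood at 434, 507 and 1004 after FA and 6379, 9355 and 5815 after O3, and in KO males at 535, 936 and 4886 after FA and 7633, 10786 and 7553 after O3. The KO groups did not overlap in either sex. In co-ex females it stood at 2301, 1338, 1687 and 2119 after FA and 4556, 2207, 2507 and 2678 after O3, and in co-ex males at 443, 273, 727 and 2292 after FA and 208, 2618, 388 and 1908 after O3. In co-ex females only the 2207 of O3 replicate 2 lay within the range after FA, and in co-ex males the exposures overlapped widely. The genotypes differed by -2.65 ± 0.75 (adjusted p = 0.0762). The tested relatives with its seed did not pass in any arm. Their differences were -0.09 ± 0.44 for miR-25-3p and -0.06 ± 0.38 for miR-92a-3p.

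The entries of uncertain origin made up the other 6. miR-3473e had the largest rise in KO of the 10, 5.77 ± 0.86. Its KO female values were 0, 0 and 11.2 after FA and 216, 284 and 168 after O3, and its KO male values were 4.06, 0.743 and 134 after FA and 295, 252 and 493 after O3. A value of 0 allows up to 3 reads, a normalized value of 1.69 to 2.20 in the KO female FA libraries. Co-ex females had 6076, 1564, 2502 and 4258 after FA and 7669, 4721, 1691 and 1969.7 after O3, and co-ex males 312, 63.5, 747 and 326 after FA and 492, 5948, 444 and 3097 after O3. KO libraries were thus separated by exposure and co-ex libraries were not. The difference was -4.53 ± 1.143 (adjusted p = 0.0410).

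miR-2137, a short GC-rich entry, stood at 44.6, 289 and 39.1 after FA and 2468, 1762 and 2026 after O3 in KO females, and at 79.2, 115 and 321 after FA and 3240.4, 3244 and 2658 after O3 in KO males. Co-ex females had 13068, 1408, 12509 and 12037 after FA and 25264, 11289, 1739 and 8121 after O3, and co-ex males 462, 151, 2433 and 929.6 after FA and 843, 3306, 466 and 11885 after O3. The KO exposures were separate and those of co-ex were not. Its difference between genotypes was -3.64 ± 1.03 (adjusted p = 0.0762).

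miR-6240 stood at 241, 979.9 and 967 after FA and 4509.7, 27656 and 5335 after O3 in KO females, and at 1413, 628 and 5831 after FA and 6848, 6224 and 9357 after O3 in KO males. Co-ex females had 5850.3, 1203, 5979 and 8323 after FA and 12181, 5487, 2000.3 and 2120.1 after O3, and co-ex males 1325, 1280.3, 7727 and 7647 after FA and 2195, 7053, 2204 and 4221 after O3. The mean of the co-ex groups hardly moved, at 0.03 ± 0.56 against 2.96 ± 0.65 in KO. The difference was -2.93 ± 0.86 (adjusted p = 0.0828).

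miR-1961 has the seed of let-7 on a mature sequence of 17 bases, 5 fewer than let-7a-5p. It stood at 11.9, 68.8 and 48.9 after FA and 1212, 409 and 857 after O3 in KO females, and at 21.3, 39.4 and 212 after FA and 1294, 909.7 and 1800.2 after O3 in KO males. In co-ex females the values were 1698, 145, 1114 and 1159.9 after FA and 2413, 871, 276 and 448 after O3, and in co-ex males 10.97, 18.7, 207 and 83.3 after FA and 30.2, 617, 40.3 and 532 after O3. The exposures were separate in KO only. miR-1961 differed by -3.64 ± 1.12 between genotypes (adjusted p = 0.0831), while the 9 tested let-7 miRNAs with the same seed ranged from -0.11 to 1.06 and none of them passed.

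miR-714 and miR-712-5p were the scarcest of the 10. miR-714 stood at 0, 10.99 and 9.08 after FA and 120.5, 435 and 168 after O3 in KO females, and at 25.4, 0 and 73.1 after FA and 120.8, 111.5 and 456 after O3 in KO males. In co-ex females it stood at 453, 34.6, 164 and 581 after FA and 583, 292, 72.2 and 63.1 after O3, and in co-ex males at 35.3, 19.8, 125.3 and 55.5 after FA and 10.1, 409.6, 34.6 and 196 after O3. The KO exposures did not overlap and the co-ex exposures did. Its difference was -4.44 ± 1.33 (adjusted p = 0.0831).

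miR-712-5p is known to be cut from a spacer of the ribosomal RNA precursor. It had 0 reads in all 3 KO female FA libraries and stood at 84.9, 8.61 and 45.5 after O3, on average at least 21.1-fold higher than the 3 reads that a count of 0 allows in a library. The 8.61 of O3 replicate 2 is 2 reads, in a library where 3 reads come to 12.9. The bound takes the O3 values as they stand. In KO males it stood at 6.10, 4.46 and 14.9 after FA and 71.7, 65.2 and 109 after O3. Co-ex females had 229, 20.1, 90.8 and 193 after FA and 221, 123.8, 42.6 and 38.4 after O3, and co-ex males 0.783, 4.48, 19.1 and 17.5 after FA and 7.32, 122.3, 4.32 and 59.1 after O3. The fitted difference of -3.46 ± 1.08 (adjusted p = 0.0831) depends on the 1 that was added to each value before logs were taken.

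Of the 51 entries of uncertain origin in all 4 tables, 34 were tested, 27 differences were below 0 (26 to 28 under the other scalings) and 7 above, where 93 of all 230 were above, and 6 were called, where 10 of 230 were, with a median of -1.19. In the KO arm 13 of the 34 rose and 0 fell, where 35 and 10 of 230 did. The list held from 1.16% to 48.1% of the reads of a library, and in co-ex females it reached 33.0% after FA and 48.1% after O3. Outside the epithelial and uncertain-origin lists, 181 miRNAs were tested and 1 was called, miR-92b-3p, with a median difference of -0.03. Both lists were made with earlier results of these data known, so the split between them and the rest is a description with no test.

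**Figure D2:**
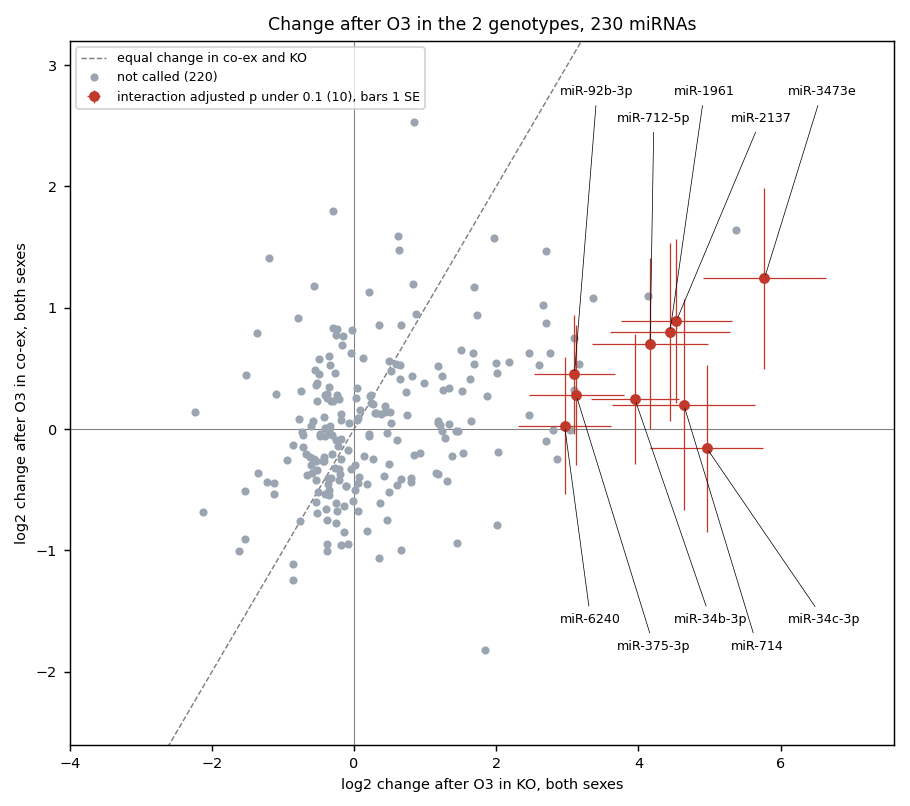
Each point is 1 of the 230 tested miRNAs, with its log2 change after O3 in KO on the x axis and in co-ex on the y axis, sexes joined. The 10 called miRNAs (red, bars of 1 SE) lie at 2.96 to 5.77 in KO and at -0.16 to 1.24 in co-ex, below the dashed line of equal change.

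The arms of the contrast show on which side the changes lay. In KO, 35 miRNAs (15.2%) rose after O3 and 10 (4.35%) fell, with 56 at an unadjusted p of 0.05. The 5 with the smallest p were miR-3473e, miR-34b-3p, miR-34c-3p, miR-2137 and miR-92b-3p, all among the 10 above, and the other 5 of the 10 rose in KO as well, by 2.96 to 4.64. Every O3 library lay above every FA library for 48 of 230 miRNAs (20.9%) in the KO female table and 21 (9.13%) in the KO male table, and for 10 and 8 of the called miRNAs, which were chosen with these values. Those that overlapped in KO males were miR-34c-3p and miR-375-3p, each through FA replicate 3. The 10 that fell were miR-1943-5p, miR-423-5p, miR-1249-3p, miR-23a-5p, miR-1306-5p, miR-320-3p, let-7a-5p, miR-181a-5p, let-7d-5p and miR-652-3p, by 0.59 to 2.23 on the log2 scale, and most of these names fall outside the rule for named miRNAs and were chosen after their values were seen. This fall rested on few libraries, since none of the miRNAs fell without KO female FA replicate 2, KO male FA replicate 2 or KO male O3 replicate 1, and with values scaled to the total reads of each library 40 rose and 1 fell, and by DESeq2 28 rose and 20 fell.

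In co-ex, 0 of the 230 (0%) passed, with 17 at an unadjusted p of 0.05. By edgeR's quasi-likelihood test on reads recovered from the values there were also 0, and by DESeq2 3 (miR-101a-3p, miR-425-5p and miR-93-3p, the last named after its values were seen). None of the 10 called miRNAs had every O3 library above every FA library in co-ex females or co-ex males, where 1.3% and 2.61% of all tested did. Separation was thus rare in co-ex for any miRNA, and the 10 were chosen with these values. The smallest p belonged to miR-101a-3p, an inhibitor of the histone methyltransferase gene Ezh2, which went from 103 ± 18.4 (SD, n = 4) to 275 ± 60.9 in co-ex females and from 125.8 ± 67.9 to 224 ± 115 in co-ex males. The KO levels of miR-101a-3p were 327 ± 146 (SD, n = 3) and 374 ± 37.3 in females and 1063 ± 286 and 1131 ± 269.6 in males. The change in co-ex was 1.13 ± 0.31 (adjusted p = 0.272), the difference between genotypes 0.93 ± 0.47 (adjusted p = 0.331), and neither passed. miR-450a-5p (2.53 ± 0.84), miR-425-5p (-0.68 ± 0.23), miR-22-5p (1.79 ± 0.64) and miR-29c-3p (1.48 ± 0.55) followed, with adjusted p-values of 0.510 to 0.537.

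**Figure D3:**
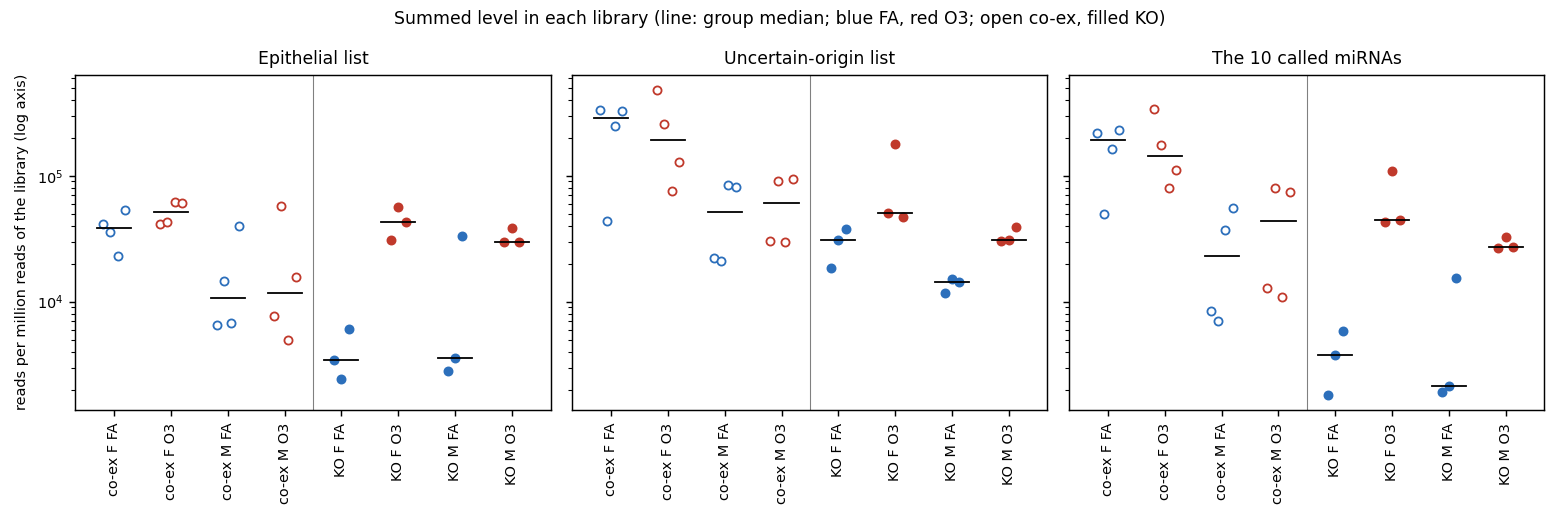
RPM, the reads scaled to a common library total, on a log axis, for the epithelial list, the uncertain-origin list and the 10 called miRNAs summed, in each library (points) with the group median (line). For the 10 miRNAs summed, 5 KO FA libraries lie at 1824 to 5856, below every other library, and KO male FA replicate 3 lies at 15481.

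In RPM, which does not depend on the separate scales of the tables, each of the 10 called miRNAs had a higher median in the 8 co-ex FA libraries than in the 6 KO FA libraries. The median of these differences was 4.22 (log2 of RPM plus 1), against 0.41 over all 230 tested. After O3 it was 0.59, against 0.17 over all. miR-34b-3p, for example, had a median of 7883 RPM (591 to 17332) in co-ex and 457 (156 to 916) in KO after FA, and of 8430 (595 to 15918) in co-ex and 7130 (4637 to 15016) in KO after O3. miR-92b-3p had 8266 (820 to 14980) and 809 (377 to 3336) after FA and 10685 (587 to 27274) and 10615 (6172 to 19554) after O3. Not all of them came that close. The co-ex median was 31.8 times the KO median after O3 for miR-3473e, 7.57 times for miR-2137 and 3.52 times for miR-712-5p. The spread within co-ex was wide, and co-ex females had more of the 10 than most co-ex males. After FA, the 10 summed to 49457 to 232049 RPM in co-ex females, 7044 to 55741 in co-ex males, 1824 to 5856 in KO females and 1917 to 15481 in KO males. After O3 they summed to 79929 to 341004 in co-ex females, 10880 to 80208 in co-ex males, 42697 to 109381 in KO females and 26520 to 32660 in KO males. For all 10, every KO female FA library lay below every co-ex female FA library, as it did for 63 of the 230 (27.4%). The miRNAs were called from the same libraries, so these levels are a description with no test.

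Of the 10 called miRNAs, 3 are on the epithelial list. Its levels come from the same libraries and are a description with no test. The epithelial list took 2.32% to 5.34% of the reads in co-ex females after FA and 4.17% to 6.23% after O3, and 0.654% to 3.97% and 0.498% to 5.80% in co-ex males. In KO it took 0.245% to 0.605% after FA and 3.10% to 5.67% after O3 in females, and 0.281% to 3.33% and 2.98% to 3.85% in males. A library held reads of 13 to 17 of its 17 members, and 10 members had reads in all 28 libraries. The part of epithelial cells in the levels of miR-92b-3p and of the uncertain-origin entries was not tested.

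The 3 later-numbered KO FA libraries held more of some of the 10 than the 3 earlier-numbered KO FA libraries. miR-34b-3p had 560 to 916 RPM in them and 156 to 355 in the others, and miR-1961 had 94.02 to 145 and 15.03 to 29.7. Without the later-numbered libraries, 24 miRNAs were called for the difference between genotypes, 1 higher and 23 lower, and all 10 were among them. In the KO arm 38 then rose and 0 fell. The lone FA library left in KO females is in that fit assumed to vary like the other groups.

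**Figure D4:**
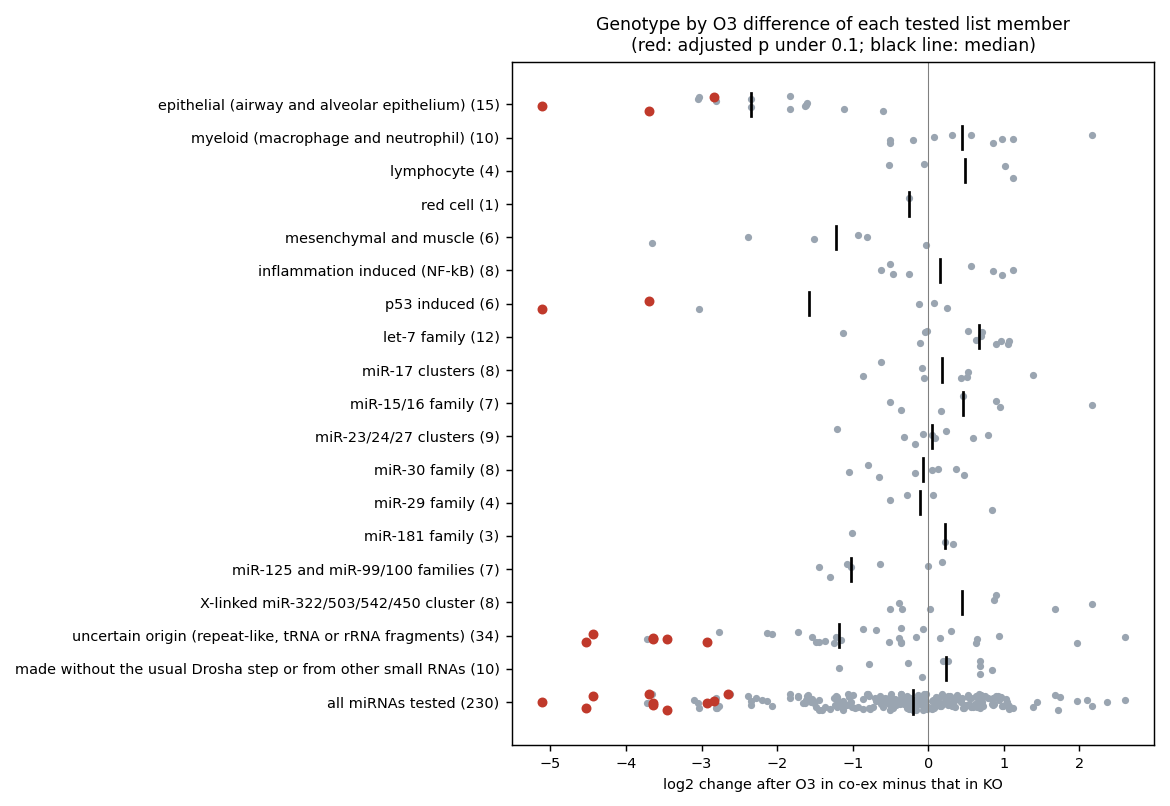
The x axis is the log2 change after O3 in co-ex minus that in KO, and each point is 1 tested member of the list on the left, with the number tested in parentheses. All 15 epithelial miRNAs lie below 0, and 3 of them are called (red). Black lines are medians, at -2.34 for the epithelial list and -0.20 for all 230.

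The families outside those lists gave few calls. The let-7 family, which restrains growth and promotes differentiation, had 12 tested members, 0 called, and a median difference of 0.66, with 8 above 0 (10 under TMM scaling), where 93 of all 230 were, and 11 above the median of all tested. let-7i-5p differed by 0.90 ± 0.31 (adjusted p = 0.119), let-7a-5p by 1.06 ± 0.37 (adjusted p = 0.128), let-7f-5p by 1.06 ± 0.40 (adjusted p = 0.151) and let-7g-5p by 0.70 ± 0.33 (adjusted p = 0.287). In KO females let-7a-5p was 80776 ± 8267 (SD, n = 3) after FA and 37769 ± 8342 after O3, and in KO males it was 134591 ± 12216 and 104294 ± 9214, with the exposures separate in both. In co-ex females it was 7217 ± 3969 (SD, n = 4) and 7860.1 ± 3029.5, and in co-ex males 21065 ± 9528 and 27953 ± 5837. In the KO arm let-7a-5p and let-7d-5p fell, and by DESeq2 on the recovered reads 5 of the 12 were called higher in co-ex for the difference between genotypes, where 9 of 230 were.

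The myeloid list, which marks AM and other cells of that lineage, had 10 tested members, 0 called and a median of 0.44, with 7 above 0 (6 with total-count scaling, 9 by DESeq2). miR-322-5p (2.16, adjusted p = 0.332), miR-21a-5p (0.86, adjusted p = 0.413), miR-155-5p (1.13, adjusted p = 0.606), induced in activated macrophages, and miR-132-3p (0.98, adjusted p = 0.771) were its members with the smallest p. The list of miRNAs induced by NF-kB had 8 tested, 0 called and a median of 0.16. Of the 6 tested mesenchymal and muscle miRNAs 0 were called, with a median of -1.22, led by miR-145a-5p at -3.65 (adjusted p = 0.213). All 6 of these differences were below 0, as were those of the epithelial list, where 93 of all 230 were above 0. In the KO arm all 6 changes were above 0, with a median of 1.25, and 0 passed. None of the tested members of the lymphocyte (4), red-cell (1), miR-17 (8), miR-15/16 (7), miR-23/24/27 (9), miR-30 (8), miR-29 (4), miR-181 (3), miR-125 and miR-99/100 (7) and X-linked miR-322 cluster (8) lists or of the list of miRNAs made without the usual Drosha step (10) was called. The p53 list had 2 of 6 called, the same miR-34b-3p and miR-34c-3p. The endothelial miR-126a-3p and the hypoxia marker miR-210-3p were not tested.

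The sexes were joined in the contrast, and the difference between them was tested in the same fit. For the sex difference 0 of 230 (0%) passed, with 10 at an unadjusted p of 0.05, and edgeR and DESeq2 also called 0. In the female tables alone 14 miRNAs were called for the difference between genotypes (1 higher, 13 lower), and in the male tables alone 0, with 5 at an unadjusted p of 0.05. These counts were unsteady: the female one ran from 1 (without co-ex female FA replicate 4, co-ex female O3 replicate 3 or 4, or KO female FA replicate 2) to 26 (without co-ex female FA replicate 2 or co-ex female O3 replicate 1) when 1 library was left out and was 34 with library weights, and the male one was 27 (2 higher, 25 lower) with library weights and 1 without the later-numbered KO FA libraries. All 10 were below 0 in each sex, from -7.60 to -2.88 in females and from -3.24 to -1.33 in males. They were chosen by the mean of the female and male values, so this shared sign is a description with no test. The median over all 230 was -0.46 in females and -0.008 in males. miR-34c-3p was the most uneven at -7.60 ± 1.48 in females and -2.64 ± 1.48 in males, a sex difference of -4.96 ± 2.10 (adjusted p = 0.843). Its female value rests on KO FA libraries with 1, 1 and 21 reads and was -8.39 with 0.1 and -6.30 with 5 added to each value in place of 1. miR-34b-3p was more even, at -4.28 ± 1.16 and -3.13 ± 1.16. KO male FA replicate 3 entered the male value, and without it the male tables alone still gave 0 calls, with 24 at an unadjusted p of 0.05, while 26 miRNAs rose in KO males in place of 6. With the replicate block 0 passed in KO males. Their same-numbered FA and O3 libraries correlated at 0.25, 0.11 and 0.34 in their deviations from the group mean, and the cause of the lost calls was not tested.

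The 3 miRNAs with the smallest p for the sex difference were miR-218-5p (-7.36 ± 2.42), miR-1306-5p (6.55 ± 2.15) and miR-181a-5p (-1.77 ± 0.60), each with an adjusted p of 0.518. miR-181a-5p, which tunes receptor signalling in lymphocytes, had the highest level of the 3. It went from 719.5 ± 160.4 (SD, n = 4) to 416 ± 81.5 in co-ex females, from 3061 ± 785 to 3226 ± 921 in co-ex males, from 2977 ± 283 (SD, n = 3) to 2744 ± 465 in KO females and from 12476 ± 1731 to 6049 ± 1065 in KO males. In KO males its change had an adjusted p of 0.0994, and of 0.161 with the replicate block, and in co-ex females it did not pass (adjusted p = 0.273). miR-218-5p was scarce, with group means of 3.45 to 12.3 in co-ex and 4.38 to 97.2 in KO.

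**Figure D5:**
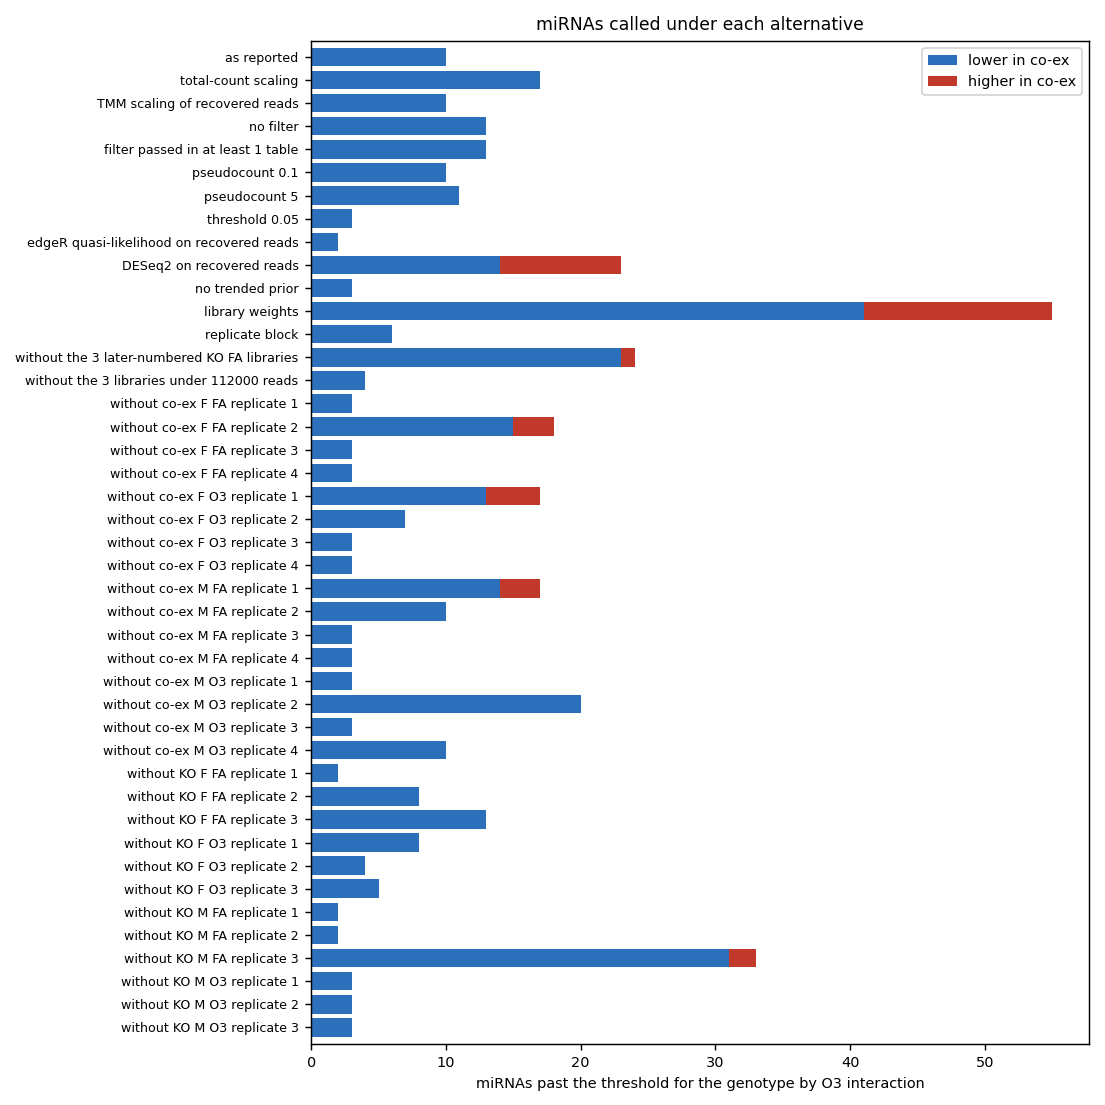
Bars give the number of miRNAs past the threshold for the difference between genotypes, as reported and under each alternative, split into lower in co-ex (blue) and higher in co-ex (red). The number is 10 as reported and runs from 2 to 55, and the lower calls are the more numerous in each of these fits.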

How the data were processed

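Small RNA from AM was sequenced in 28 libraries. Per the methods, the authors filtered reads with CASAVA and the FASTX-Toolkit, trimmed adapters, counted miRNAs with Chimira, and called changes with edgeR and TCC; the genome build is not given in the sources used here. The deposited values are a signal, reads divided by a size factor, normalized separately in each of 4 tables. All values of the 28 libraries were whole multiples of 1 read (100% within 0.01 read), which gave the read counts. Deposited columns of the O3 against FA comparison (fold changes, p-values, q-values, means and ranks) were not used.

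Here log2(value + 1) was fitted by limma with a trended prior over 8 group means (20 residual degrees of freedom), so that the scale of a table cancels within it, with Benjamini-Hochberg adjustment over 230 miRNAs and a threshold of 0.1. The fit was tested on simulated data. RPM and floors cover counting error only. Named were the called miRNAs (at most 12 per direction), up to 4 members of a list, the 5 with the smallest p in each arm and 3 for the sex difference. Members, lists and tests were chosen with earlier results of these data known. Alternatives were other scalings, filters, pseudocounts (0.1 and 5), a threshold of 0.05, edgeR, DESeq2, library weights, a replicate block and left-out libraries. Fits were run in R 4.3.3 with limma 3.58.1 (alternatives with edgeR 4.0.16 and DESeq2 1.42.0), and summaries and figures were made in Python 3.11.15 with numpy 2.4.6, pandas 2.3.3 and matplotlib 3.10.9.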

Additional observations from a re-analysis of the deposited data

Results flagged for a closer look

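Each of the 10 called miRNAs differed between co-ex and KO in its change after O3, by a test of that difference: miR-34c-3p (-5.12, log2), miR-34b-3p (-3.70), miR-3473e (-4.53), miR-92b-3p (-2.65), miR-2137 (-3.64), miR-6240 (-2.93), miR-714 (-4.44), miR-1961 (-3.64), miR-375-3p (-2.84) and miR-712-5p (-3.46). The values and tests are those given above.

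In 4 of 52 groups of 4 co-ex libraries that were examined, 1 library was far from the others, and chance alone does so in about 1 of 20 groups. miR-2137 was lowest in co-ex female FA replicate 2, at 10.46 on the log2(value + 1) scale. The uncertain-origin list was lowest in the same library, at 15.41 (log2 of RPM). miR-375-3p was highest in co-ex female O3 replicate 1, at 10.69 (log2(value + 1)), a library of 41542 reads. The myeloid list was lowest in co-ex male O3 replicate 2, at 16.62 (log2 of RPM), the library that also held the most epithelial reads of its group.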

How the results depend on the processing

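The difference between genotypes, 10 miRNAs as reported, came to 17 with total-count scaling, 3 at a threshold of 0.05 or with no trended prior, 2 with edgeR (miR-34b-3p and miR-712-5p), 23 with DESeq2 (9 higher, 14 lower), 55 with library weights (14 higher, 41 lower), 24 without the later-numbered KO FA libraries, 4 without the 3 shallowest libraries (chosen after seeing the data) and 0 in males alone. Leaving out 1 library gave 2 to 33. It came to 10 to 14 with TMM scaling, other filters, other pseudocounts and in females alone. In KO, 45 became 29 at 0.05 and 85 with library weights, and 28 to 57 on leaving out 1 library. In co-ex, 0 became 3 with DESeq2 and 1 with library weights, and 0 or 1 on leaving out 1 library. For the sex difference 0 were called in each of these. The causes were not tested. All 10 miRNAs kept their sign in all 42 alternatives and in each sex. They were chosen from the same libraries, so this too is a description with no test. Total-count scaling moved the median of all differences from -0.20 to -0.46, and the epithelial median minus that of all was -2.15 under both. Same-numbered FA and O3 libraries correlated at -0.22 to 0.34 in their deviations (all 3 pairs above 0.1 in KO males alone). Pairing by number was thus not shown over the 4 tables, and correlations of 3 or 4 pairs a table cannot exclude it. With the replicate block 6 were called in place of 10, and 41 in KO in place of 45. In females alone the count was 1 and in KO males 0 with the block, in place of 14 and 7. Few reads limit miR-714, miR-712-5p, miR-3473e and miR-34c-3p, which were at or near 0 reads in some KO libraries after FA. The KO FA libraries were not shallow, at 744541 to 1787051 reads.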
